A study of Rattus norvegicus with 48 samples.

Results

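The plantaris and the soleus of rats that had worn no cast were compared gene by gene. These were the 24 CTRL libraries of a series of 48, and they came from 12 rats that each gave both muscles. The rats were female, 14 months old and of generation 19 of 2 lines bred in opposite directions for their response to endurance training, low response (LRT) or high response (HRT). Each of the 4 groups, LRT plantaris, HRT plantaris, LRT soleus and HRT soleus, held 6 libraries. All libraries of plantaris were set against all libraries of soleus, with the line kept as a factor, so that 12 libraries stood on each side. According to the study's methods all rats had been through treadmill training earlier in life, and the CTRL rats were anaesthetized and their muscles taken as in the other rats. The methods also describe a puromycin injection shortly before the muscles were taken, and the study reports protein synthesis for the control groups too. The other 24 libraries came from rats with a hindlimb cast for 3 d (hindlimb immobilization, HI) and are used here beside the CTRL values at the end. RNA was extracted from homogenised muscle tissue and not from sorted cells, and which part of a muscle was taken is not given in the sources used here. A lower value can come from fewer cells of a type or from less RNA per cell, which cannot be told apart.

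The plantaris and the soleus both extend the ankle, but they are used differently. The soleus holds the animal up against gravity and is built mostly of slow fibers, which contract slowly, resist fatigue and draw on mitochondrial oxidation. The plantaris is recruited for faster movement and is built mostly of fast fibers, which release and clear calcium quickly and can draw on glycogen and glycolysis without oxygen. Many proteins of contraction and calcium handling exist in a fast and a slow form encoded by separate genes, and the pattern of motor nerve firing, calcineurin signalling and transcription factors of the MyoD and MEF2 families are known to bear on which form a fiber makes.

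The deposited values are estimated counts per gene, and the totals were 27 M to 34.0 M counts (M, mega) in plantaris and 26.9 M to 34.2 M in soleus. RNA integrity numbers (RIN) ran from 8.0 to 8.6 in plantaris and from 7.9 to 8.4 in soleus, and RIN was a covariate of the fit. Levels are given in CPM, the counts of a gene in each M counts of a library after the total was scaled by the trimmed mean of M values (TMM), and levels of different genes are not compared because they are not corrected for transcript length. The first principal component held 47.9% of the variance and separated the muscles, with plantaris libraries at 41.0 to 56.4 and soleus libraries at -57.4 to -34.2. On the second component 1 library stood apart, HRT soleus replicate 1, at 72.0 against -24.6 to 17.4 in the other 23. Some of the counts and calls that changed without it are given beside the results. Gene symbols could be paired with 1148 of the 31998 identifiers (3.59%), from the identifier columns of the study's own lists of genes that responded to the cast. Those lists were drawn from a set of libraries that includes these, so that the genes with a symbol are not a random sample of all genes. The sarcomeric myosin heavy chains and most troponins are without a symbol here, and neither group is analysed.

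Of 16279 genes tested, 1716 (10.5%) were differentially expressed genes (DEGs), which here had more than a 2-fold difference (over 1 or under -1 on the log2 scale) and an adjusted p below 0.05. All adjusted p-values are from the quasi-likelihood test of edgeR with Benjamini-Hochberg adjustment over all genes tested, and a positive log2 fold change means higher in plantaris. There were 789 DEGs higher in plantaris (4.85%) and 927 lower (5.69%). In 1020 DEGs (59.4%) the values of the 12 plantaris libraries did not overlap with those of the 12 soleus libraries, 507 of them higher and 513 lower in plantaris. Over all genes tested, 13.5% did not overlap, 7.65% with plantaris higher and 5.81% with plantaris lower. The median log2 fold change was 1.5 in the higher DEGs and -1.5 in the lower DEGs, and 181 DEGs lay beyond 3 in either direction, 79 of them higher and 102 lower. An adjusted p under 0.05 without regard to fold was reached by 8678 genes (53.3%). Leaving out HRT soleus replicate 1 gave 1729 DEGs, 831 higher and 898 lower. When library totals were used in place of TMM, there were 1811 DEGs and the share that was higher in plantaris was 34.2% in place of 46.0%. With that scaling the median log2 fold change of all genes moved from -0.02 to -0.17. Among the genes with a symbol 396 were DEGs (34.5%), 209 of them higher (18.2%) and 187 lower (16.3%), against 8.72% among genes without a symbol, so that these higher shares are the background for each gene list.

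**Figure D1:**
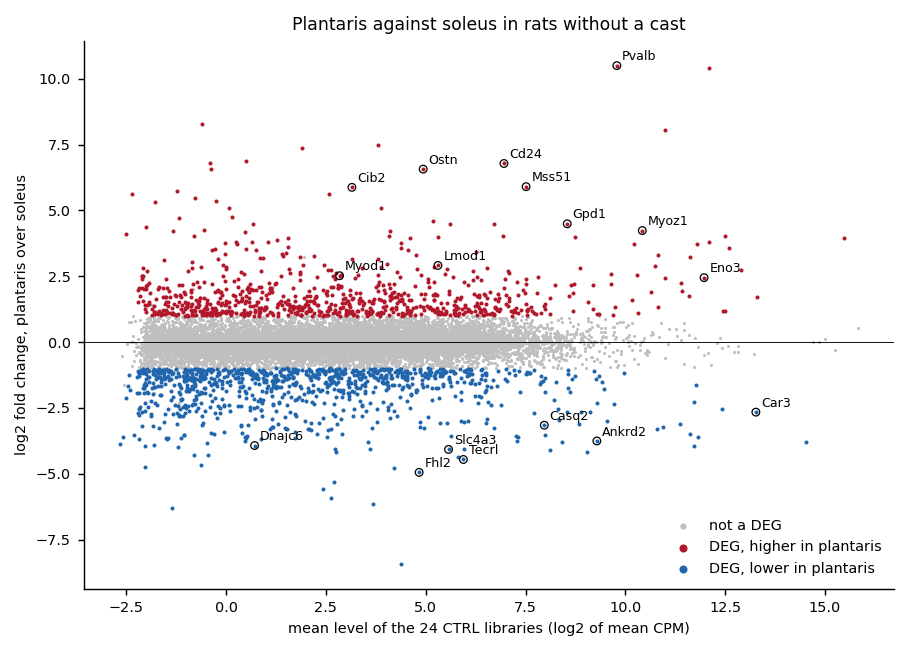
Each point is 1 of the 16279 genes tested, with the log2 of its mean CPM over the 24 libraries on the x axis and the log2 fold change of plantaris against soleus on the y axis. DEGs higher in plantaris are red and DEGs lower are blue, with some named genes ringed. Pvalb stands at 10.5 and Fhl2 at -4.95, and DEGs occur over the whole range of levels.

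Among genes with a symbol whose muscles did not overlap, Pvalb showed the largest difference. Pvalb encodes parvalbumin, the soluble calcium buffer that speeds relaxation of fast fibers. Its level was 788 to 2950 CPM in plantaris (median 1800) and 0.119 to 3.65 CPM in soleus (median 0.905). Each plantaris library was above each soleus library, and the log2 fold change was 10.5 ± 0.40 (SE, 12 against 12 libraries, adjusted p = 3.7e-16). Cd24, a small cell surface glycoprotein, had 178 to 601 CPM in plantaris (median 216) and 0.504 to 5.41 CPM in soleus (median 1.96). The log2 fold change of Cd24 was 6.78 ± 0.32 (adjusted p = 2.0e-14). Ostn encodes osteocrin, also called musclin, a peptide that muscle secretes. It was spread widely in plantaris, from 8.00 to 238 CPM (median 37.7), while soleus held 0.237 to 1.36 CPM (median 0.493). Its difference was 6.57 ± 0.44 on the log2 scale (adjusted p = 9.7e-12), and even the lowest plantaris library exceeded the highest soleus library.

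Mss51 encodes a mitochondrial protein of glycolytic muscle. It had 198 to 654 CPM in plantaris (median 326) and 5.15 to 7.12 CPM in soleus (median 5.81), a log2 fold change of 5.90 ± 0.12 (adjusted p = 4.1e-21). Cib2, which binds calcium and integrins, had 11.6 to 23.6 CPM against 0.0908 to 0.526 CPM, with a log2 fold change of 5.88. Aqp4 encodes the water channel of the fast fiber membrane and had 144 to 274 CPM in plantaris (median 193) against 1.69 to 35.1 CPM in soleus (median 7.79). The log2 fold change of Aqp4 was 4.48 ± 0.32 (adjusted p = 2.1e-11). Chac1, an enzyme that breaks down glutathione, was higher by 4.22 on this scale, with 12.7 to 70.4 CPM in plantaris and 0.608 to 2.84 CPM in soleus. Tppp2, of the family that promotes tubulin polymerization, was higher by 4.48 at low levels, 1.34 to 5.17 CPM against 0.0351 to 0.316 CPM. The remaining 4 of the 12 genes with the largest positive fold, Gpd1, Fbp2, Myoz1 and Slc16a3, belong to the metabolic and contractile lists.

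The genes at the other end were led by a LIM domain protein. Fhl2, which binds titin and transcription factors and is best known from heart, had 1.15 to 3.57 CPM in plantaris (median 1.5) and 41.0 to 74.3 CPM in soleus (median 55.7). The log2 fold change of Fhl2 was -4.95 ± 0.19 (adjusted p = 3.3e-16). At this end too the genes were taken from those whose muscles did not overlap. Zfp474, a zinc finger gene, had 0.166 to 3.5 CPM in plantaris and 12.3 to 54.5 CPM in soleus, with a log2 fold change of -4.77. Tecrl encodes a protein of the endoplasmic reticulum that is known from inherited arrhythmia, and it had 2.29 to 9.44 CPM in plantaris (median 4.92) against 78.1 to 168 CPM in soleus (median 117). The difference was -4.46 ± 0.25 (adjusted p = 4.6e-13). Mettl21c, a lysine methyltransferase of muscle, had 12.5 to 49.3 CPM in plantaris (median 26.7) and 149 to 838 CPM in soleus (median 556), a log2 fold change of -4.11. Actc1, the cardiac alpha actin, was lower by the same order, with 4.06 to 15.4 CPM in plantaris and 29.6 to 249 CPM in soleus (log2 fold change -4.07). Actin genes are near-identical in sequence, so that reads may be divided between Actc1 and its relatives.

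Dnah5, an axonemal dynein heavy chain, was lower in plantaris by a log2 fold change of -3.60 ± 0.27 (adjusted p = 6.9e-11). Its range was 2.49 to 72.7 CPM in plantaris (median 25.0) and 182 to 401 CPM in soleus (median 291). Ablim1, a LIM protein that binds actin, had 25.6 to 69.3 CPM in plantaris and 326 to 662 CPM in soleus (log2 fold change -3.53). Dnajc6, which encodes auxilin, a partner of Hsc70 in uncoating clathrin vesicles, was lower by -3.93 at 0.0358 to 0.426 CPM against 1.47 to 5.37 CPM. The other 4 of the 12 with the largest negative fold, Slc4a3, Colq, Ryr3 and Ankrd2, are described with their families. Among genes without a symbol, ENSRNOG00000019745 was higher by 10.43, with 5660 to 14300 CPM in plantaris and 1.87 to 33.3 CPM in soleus. ENSRNOG00000019627 was higher by 8.07, with 2330 to 6180 CPM against 0.874 to 125 CPM. ENSRNOG00000005268 was lower by -6.15 (0.0332 to 0.681 CPM against 4.40 to 55.2 CPM), and ENSRNOG00000008807 by -5.92 (0 to 0.319 CPM against 5.64 to 22.5 CPM, with a count of 0 in 1 plantaris library). These 4 genes were taken from those whose muscles did not overlap.

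The list of fast fiber contraction and calcium genes has 22 members, of which 9 had an identifier. Of these 5 were DEGs higher in plantaris (55.6%, beside 18.2% of all genes with a symbol), 1 was lower (11.1% beside 16.3%) and 3 were no DEG. The median log2 fold change was 1.62 against -0.05 over all genes with a symbol and -0.02 over all genes tested. Mylpf encodes the regulatory light chain of fast myosin, and it had 6410 to 10200 CPM in plantaris (median 7670) and 82.3 to 1150 CPM in soleus (median 632). Its log2 fold change was 3.81 ± 0.33 (adjusted p = 8.9e-10), with no overlap. Atp2a1, the calcium pump SERCA1 of the fast sarcoplasmic reticulum, had 1960 to 2820 CPM in plantaris (median 2070) and 38.0 to 269 CPM in soleus (median 191), a log2 fold change of 3.71 ± 0.24 (adjusted p = 5.3e-12). Casq1, the calcium store protein calsequestrin of skeletal muscle, differed less, with soleus at 517 to 655 CPM (median 559) against 1200 to 2270 CPM in plantaris (median 1720). The log2 fold change of Casq1 was 1.62 ± 0.07 (adjusted p = 1.7e-15). Myoz1, a Z-disc protein that binds calcineurin, had 2040 to 3880 CPM in plantaris (median 2470) and 57.2 to 329 CPM in soleus (median 127), a difference of 4.24 ± 0.16 (adjusted p = 2.3e-16). Pvalb was the remaining higher member.

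The list was not uniform. Jph2, which holds the membranes of the calcium release unit together, had 77.0 to 106 CPM in plantaris and 45.0 to 63.4 CPM in soleus, with a log2 fold change of 0.81 (adjusted p = 8.7e-10) that stays under the fold needed for a DEG although the muscles did not overlap. Srl, a calcium-binding protein of the sarcoplasmic reticulum, stood at 0.28 and Myoz3 at 0.40, both with overlap. Mybph, a myosin-binding protein, was the lower member at -1.10 ± 0.39 (adjusted p = 0.021), with 13.7 to 59.6 CPM in plantaris and 18.3 to 170 CPM in soleus. Its muscles overlapped, and the call was lost without HRT soleus replicate 1 (-0.77, adjusted p = 0.12), without LRT soleus replicate 3 (-0.77, adjusted p = 0.036), without HRT plantaris replicate 2 (-0.98, adjusted p = 0.052), under limma-voom (-0.75, adjusted p = 0.10) and with the replicate number as a block (-0.76, adjusted p = 0.06).

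The slow list has 21 members, and 6 had an identifier. Of these 4 were DEGs lower in plantaris (66.7%, beside 16.3% of all genes with a symbol), 0 were higher and 2 were no DEG. The median log2 fold change was -2.91. Casq2, the calsequestrin of heart and slow muscle, had 22.4 to 68.0 CPM in plantaris (median 52.1) and 365 to 533 CPM in soleus (median 447), a log2 fold change of -3.16 ± 0.13 (adjusted p = 1.1e-15). The 2 calsequestrin genes thus differed in opposite directions. Ankrd2, an ankyrin repeat protein of the titin complex that responds to stretch, had 34.4 to 140 CPM in plantaris (median 88.7) and 445 to 2330 CPM in soleus (median 1120), a log2 fold change of -3.75 ± 0.28 (adjusted p = 6.9e-11). Car3, the carbonic anhydrase of slow fibers, was abundant in both muscles, with 1770 to 3910 CPM in plantaris (median 2670) and 10100 to 20500 CPM in soleus (median 18300). The difference of Car3 was -2.66 ± 0.15 (adjusted p = 3.4e-13), and neither Casq2, Ankrd2 nor Car3 overlapped between muscles. Fhl2 was the fourth lower member. Pln, phospholamban, the brake on the slow calcium pump, had 11.6 to 33.9 CPM in plantaris and 10.8 to 26.9 CPM in soleus, a log2 fold change of 0.26 (adjusted p = 0.18). The markers of this list and of the fast list that passed without overlap all had the direction of the labelled muscle. Sbk2, a muscle kinase, stood at -0.91 (adjusted p = 3.5e-05), under the fold needed, and passed it with library totals (-1.06) and without LRT plantaris replicate 2 (-1.04).

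**Figure D2:**
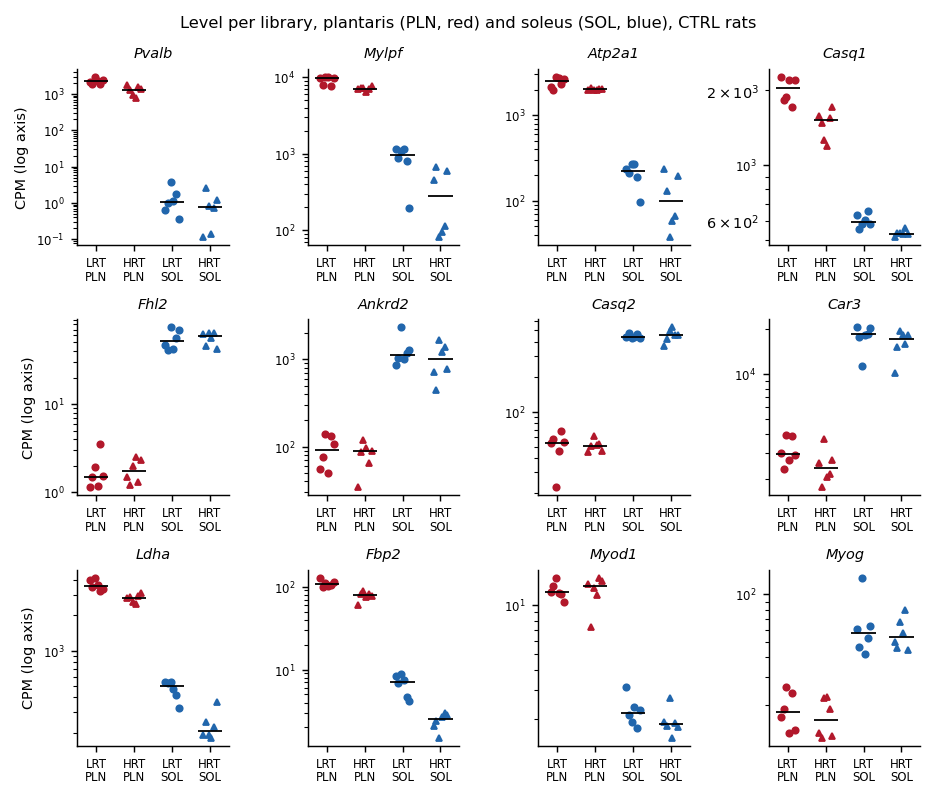
CPM of 12 genes in each of the 24 libraries on a log axis, with plantaris in red and soleus in blue, LRT as circles, HRT as triangles and a bar at the median of each line in each muscle. Pvalb, Mylpf, Atp2a1, Casq1, Ldha, Fbp2 and Myod1 have every plantaris library above every soleus library, and Fhl2, Ankrd2, Casq2, Car3 and Myog have every plantaris library below.

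The promoters of 5 of these genes are shown because 2 motifs that muscle factors are known to bind were looked up in them, the E-box of the MyoD family (CANNTG) and the A/T-rich element of MEF2. The 250 bases before the start site were read from RefSeq on the GRCr8 build, which is not the build of the counts (Rnor_6.0), and capitals mark the matches named. Pvalb (chr7:111666290-111666539, minus strand) and Casq1 (chr13:87212711-87212960, minus strand) are shown with their E-boxes. Myoz1 (chr15:3693363-3693612, plus strand), Fhl2 (chr9:52954541-52954790, minus strand, 1 of its 2 windows) and Casq2 (chr2:192214306-192214555, plus strand) are shown with their MEF2 match. Their windows also hold E-boxes that are not marked, 1 in Myoz1, 3 in Fhl2 and 2 in Casq2.
Pvalb: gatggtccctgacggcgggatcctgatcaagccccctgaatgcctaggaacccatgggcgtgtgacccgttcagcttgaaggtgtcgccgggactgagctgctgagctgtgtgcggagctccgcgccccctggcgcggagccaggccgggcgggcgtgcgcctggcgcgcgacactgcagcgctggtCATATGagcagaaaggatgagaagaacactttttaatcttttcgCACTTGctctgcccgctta
Casq1: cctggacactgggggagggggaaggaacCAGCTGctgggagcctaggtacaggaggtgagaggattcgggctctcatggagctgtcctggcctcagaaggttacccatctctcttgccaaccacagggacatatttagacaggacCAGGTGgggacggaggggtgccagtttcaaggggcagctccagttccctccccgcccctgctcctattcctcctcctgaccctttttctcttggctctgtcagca
Myoz1: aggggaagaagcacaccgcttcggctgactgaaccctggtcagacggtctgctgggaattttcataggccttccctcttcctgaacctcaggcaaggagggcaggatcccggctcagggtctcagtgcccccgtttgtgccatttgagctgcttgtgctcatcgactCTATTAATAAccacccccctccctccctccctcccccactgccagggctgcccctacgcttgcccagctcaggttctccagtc
Fhl2: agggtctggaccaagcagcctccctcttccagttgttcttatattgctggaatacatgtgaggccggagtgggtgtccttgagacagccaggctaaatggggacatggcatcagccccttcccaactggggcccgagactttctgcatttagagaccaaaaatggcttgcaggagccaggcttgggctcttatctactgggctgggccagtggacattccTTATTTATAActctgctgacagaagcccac
Casq2: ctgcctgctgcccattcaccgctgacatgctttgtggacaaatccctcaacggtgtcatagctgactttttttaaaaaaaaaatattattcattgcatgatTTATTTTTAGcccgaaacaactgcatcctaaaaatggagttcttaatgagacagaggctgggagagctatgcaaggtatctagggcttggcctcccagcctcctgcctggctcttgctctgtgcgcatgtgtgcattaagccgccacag
The last base of the MEF2 match lay at -74 in Myoz1, -21 in Fhl2 and -140 in Casq2, counted back from the start site. A window was found for 26 of 35 genes looked up. Of the 26, 3 held a MEF2 match on either strand, 1 of 11 DEGs higher in plantaris and 2 of 11 lower. A gene was counted if any of its windows held a match, while the shares that follow are by window. Over all 33469 windows of this length 2.96% held a MEF2 match and 65.5% held an E-box, so that an E-box is a common word. A match describes the letters in the window and not a bound site.

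Glycolysis and glycogen genes were higher in plantaris as a group, with 20 DEGs higher, 0 lower and 7 no DEG among 27 members with an identifier of 35. The share of higher members was 74.1%, against 18.2% of all genes with a symbol. The median log2 fold change was 1.88, and in each of the 20 DEGs the muscles did not overlap. Gpd1, the cytosolic glycerol-3-phosphate dehydrogenase that passes reducing power on from glycolysis, had 560 to 946 CPM in plantaris (median 712) and 14.7 to 68.2 CPM in soleus (median 27). Its log2 fold change was 4.49 ± 0.17 (adjusted p = 2.5e-16). Fbp2, the muscle form of fructose bisphosphatase, had 60.2 to 128 CPM in plantaris (median 93.0) and 1.51 to 8.95 CPM in soleus (median 3.59), also a log2 fold change of 4.49 (SE 0.13, adjusted p = 2.8e-18). Slc16a3 encodes MCT4, the transporter that exports lactate, and had 170 to 294 CPM in plantaris (median 227) against 1.63 to 44.8 CPM in soleus (median 14.7). Slc16a3 differed by 4.02 ± 0.35 (adjusted p = 6.4e-10).

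The enzymes that carry glucose 6-phosphate down to lactate followed. Ldha, the lactate dehydrogenase subunit of fast muscle, had 2520 to 4190 CPM in plantaris (median 3180) and 182 to 544 CPM in soleus (median 344), a log2 fold change of 3.29 ± 0.12 (adjusted p = 1.2e-16). Pkm, pyruvate kinase, differed by 2.88, with 2420 to 4020 CPM against 284 to 625 CPM. Pgam2, the muscle phosphoglycerate mutase, differed by 2.56, Eno3, the muscle enolase, by 2.45, and Pfkm, the phosphofructokinase of muscle, by 2.44. Pgk1 (phosphoglycerate kinase) was higher by 2.20, Tpi1 (triose phosphate isomerase) by 1.91 and Gpi (glucose phosphate isomerase) by 1.88. These 8 genes each passed with an adjusted p of 6.0e-15 or less. Of the enzymes that set fructose 2,6-bisphosphate, the activator of phosphofructokinase, Pfkfb3 was higher by 2.80 (73.0 to 299 CPM against 10.9 to 35.2 CPM) and Pfkfb1 by 2.49 (69.8 to 156 CPM against 11.9 to 45.3 CPM).

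Around glycogen, Prkag3, the regulatory subunit of AMP-activated protein kinase found in fast muscle, was higher by 2.86 ± 0.14 (adjusted p = 2.6e-14), with 35.8 to 110 CPM in plantaris and 6.10 to 11.9 CPM in soleus. Nhlrc1, the ubiquitin ligase malin that is mutated in a glycogen storage disease of the nervous system, was higher by 1.87. Bpgm, which makes 2,3-bisphosphoglycerate, was higher by 1.28, Slc37a4, the glucose 6-phosphate translocase, by 1.76, Slc2a5, the fructose transporter, by 1.57, and Pgp, phosphoglycolate phosphatase, by 1.64. Slc2a4, the glucose transporter GLUT4 that insulin and contraction bring to the membrane, stood apart from them. It had 400 to 606 CPM in plantaris (median 527) and 359 to 554 CPM in soleus (median 453), a log2 fold change of 0.21 (adjusted p = 0.020) with overlapping muscles.

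Of 32 genes of mitochondrial energy metabolism with an identifier of 38, 6 were higher in plantaris (18.8%, beside 18.2% of all genes with a symbol), 2 were lower (6.25% beside 16.3%) and 24 were no DEG, and the median log2 fold change was 0.23. With library totals the counts were 4 higher and 3 lower and the median was 0.08. The lower members handle fat and ketones. Bdh1, the mitochondrial 3-hydroxybutyrate dehydrogenase, had 2.75 to 6.53 CPM in plantaris (median 3.36) and 14.1 to 35.1 CPM in soleus (median 23), a log2 fold change of -2.55 ± 0.14 (adjusted p = 3.9e-13). Fabp3, the fatty acid binding protein of heart and slow muscle, had 177 to 456 CPM in plantaris (median 325) and 492 to 1490 CPM in soleus (median 1150), a difference of -1.78 ± 0.17 (adjusted p = 2.5e-09). Neither gene overlapped between muscles. The higher members have several roles. Acsl6, an acyl-CoA synthetase, was higher by 1.66 and Acsl4, another synthetase, by 1.30, while Ehhadh, a peroxisomal enzyme of fatty acid oxidation, was higher by 1.55 and Idh3a, a subunit of isocitrate dehydrogenase in the citric acid cycle, by 1.37. Idh3a had 310 to 391 CPM in plantaris and 96.6 to 236 CPM in soleus. Ucp3, an uncoupling protein of skeletal muscle, was higher by 1.14 ± 0.36 (adjusted p = 0.0097), with 29.0 to 218 CPM against 17.7 to 121 CPM. Prodh1, proline dehydrogenase, was higher by 1.05 ± 0.19. Ucp3 and Prodh1 overlapped between muscles and were just under the fold with library totals (0.98 and 0.91), Ucp3 also without LRT plantaris replicate 3 (0.87) or LRT soleus replicate 4 (0.91) and Prodh1 without HRT soleus replicate 2 (0.93). Ckmt2, the mitochondrial creatine kinase, had 1050 to 1640 CPM in plantaris and 868 to 2650 CPM in soleus, a log2 fold change of -0.39 (adjusted p = 0.0068).

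Regulators of fiber type and muscle genes divided evenly, with 5 DEGs higher in plantaris, 6 lower and 9 no DEG among 20 members with an identifier of 28, and a median log2 fold change of -0.01. The shares were 25% higher and 30% lower, beside 18.2% and 16.3% of all genes with a symbol. Without HRT soleus replicate 1 there were 5 in each direction. The myogenic factors Myod1 and Myog, both of which bind the E-box, differed in opposite directions. Myod1, which encodes MyoD, had 7.32 to 14.6 CPM in plantaris (median 12.3) and 1.55 to 3.13 CPM in soleus (median 1.92), a log2 fold change of 2.52 ± 0.12 (adjusted p = 2.4e-14). Myog, which encodes myogenin, had 12.5 to 26.1 CPM in plantaris (median 17.9) and 41.9 to 127 CPM in soleus (median 55.4), a log2 fold change of -1.73 ± 0.19 (adjusted p = 5.2e-08). In neither gene did the muscles overlap. Both also mark satellite cells and regenerating fibers, and their source was not tested.

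Besides Myod1 and Mss51, Mamstr, a coactivator of MEF2, was higher by 1.96 (4.28 to 9.72 CPM against 0.918 to 3.5 CPM). Rxrg, the retinoid X receptor gamma of muscle, was higher by 1.5 and Smyd2, a lysine methyltransferase, by 1.13, the latter just under the fold with library totals (0.98). Lower were Rcan1, an inhibitor and target of calcineurin, and Esrrg, a nuclear receptor of oxidative genes. Rcan1 had 37.5 to 164 CPM in plantaris (median 86.7) and 388 to 985 CPM in soleus (median 631), a log2 fold change of -2.65 ± 0.23 (adjusted p = 6.3e-10). Esrrg had 14.7 to 24.9 CPM in plantaris (median 20.6) and 67.5 to 112 CPM in soleus (median 84.9), a difference of -2.03 ± 0.09 (adjusted p = 8.1e-15). In both genes the highest plantaris library was below the lowest soleus library. Vgll2, a cofactor of the TEAD factors, was lower by -1.31 and Runx1, a factor that rises in denervated muscle, by -1.10. Runx1 overlapped between muscles and fell short of the fold without HRT soleus replicate 1 (-0.91). Ppargc1a, the coactivator PGC-1 alpha of mitochondrial genes, had 17.5 to 29.3 CPM in plantaris (median 23.4) and 11.4 to 25.4 CPM in soleus (median 17.9), a log2 fold change of 0.31 (adjusted p = 0.041).

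Ion channels, pumps and genes of the neuromuscular junction also went both ways, with 6 DEGs higher, 8 lower and 13 no DEG among 27 members with an identifier of 31. The shares were 22.2% higher and 29.6% lower, beside 18.2% and 16.3% of all genes with a symbol. The median log2 fold change was -0.17, and without HRT soleus replicate 1 it was -0.02 with 7 members lower. Ryr3, a calcium release channel of the sarcoplasmic reticulum, had 16.9 to 29.1 CPM in plantaris (median 20.1) and 178 to 552 CPM in soleus (median 283), a log2 fold change of -3.76 ± 0.16 (adjusted p = 3.7e-15). Slc4a3, which exchanges chloride for bicarbonate, had 3.65 to 6.95 CPM in plantaris (median 5.47) and 39.8 to 197 CPM in soleus (median 81.4), a difference of -4.07 ± 0.16 (adjusted p = 6.7e-16). Scn1a, a voltage-gated sodium channel, was lower by -2.93 (8.12 to 33.1 CPM against 110 to 221 CPM). Hcn4, the pacemaker channel of the heart, was lower by -2.20 at low levels, 0.763 to 1.46 CPM against 1.80 to 8.73 CPM. Ano1, a calcium-activated chloride channel, was lower by -1.73. Higher, besides Aqp4, were Kcnc4, a fast potassium channel (2.67, with 25.3 to 41.1 CPM against 2.52 to 9.30 CPM), and P2rx6, a channel opened by ATP (1.75).

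Several parts of the acetylcholinesterase system, which ends the signal from nerve to muscle, were on this list and did not share a direction. Ache, the enzyme itself, had 26.6 to 44.5 CPM in plantaris (median 36.8) and 7.90 to 19.8 CPM in soleus (median 10.2), a log2 fold change of 1.62 ± 0.14 (adjusted p = 9.6e-10). Colq, the collagen tail that anchors the enzyme in the synaptic basal lamina, had 0.422 to 1.15 CPM in plantaris (median 0.763) and 3.78 to 29.3 CPM in soleus (median 11.7), a log2 fold change of -4.06 ± 0.25 (adjusted p = 1.5e-12). Ache and Colq each had no overlap between muscles. Prima1, which anchors the enzyme in membranes, was higher by 1.53 ± 0.25 (adjusted p = 1.2e-05) at 0.751 to 4.91 CPM against 0.432 to 1.57 CPM, with overlap. HRT soleus replicate 1 was the highest soleus library for all of Ache, Colq and Prima1. Ntf4, the neurotrophin that muscle makes with activity, was higher by 1.04 and fell short of the fold with library totals (0.89), in the fit of all 48 libraries (0.97) and without either of 2 libraries, HRT plantaris replicate 4 or HRT soleus replicate 3 (1.00 each).

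Of 12 chaperones with an identifier of 17, 6 were DEGs lower in plantaris (50%, beside 16.3% of all genes with a symbol), 0 were higher and 6 were no DEG. The median log2 fold change was -1.02, and without HRT soleus replicate 1 there were 7 lower members. Cryab, the small heat shock protein alpha B-crystallin that protects the Z-disc, had 796 to 1790 CPM in plantaris (median 1070) and 2730 to 8020 CPM in soleus (median 5620), a log2 fold change of -2.26 ± 0.17 (adjusted p = 9.8e-11). Hspb6, another small heat shock protein, was lower by -1.89 (98.4 to 140 CPM against 263 to 1140 CPM), Hspa2, an Hsp70, by -1.63 and Dnaja4, an Hsp40, by -1.5. None of these 4 overlapped between muscles. Hspa1b, the stress-induced Hsp70, was lower by -1.67 ± 0.24 (adjusted p = 2.0e-06) with overlap, 8.90 to 57.0 CPM against 45.6 to 94.0 CPM, and its reads may be divided with near-identical Hsp70 genes. Itgb1bp2, the Hsp90 partner melusin, was lower by -1.05.

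Among 17 antioxidant genes with an identifier of 19, 1 was higher in plantaris (5.88%, beside 18.2% of all genes with a symbol), 2 were lower (11.8% beside 16.3%) and 14 were no DEG. The median log2 fold change was -0.21. Without HRT soleus replicate 1 the counts were 2 higher and 2 lower and the median was -0.11, and with library totals they were 1 and 3 and the median was -0.36. Gpx1, glutathione peroxidase, had 84.1 to 137 CPM in plantaris (median 100) and 387 to 635 CPM in soleus (median 484), a difference of -2.21 ± 0.10 (adjusted p = 3.8e-15) without overlap. Nqo1, a quinone reductase, was lower by -1.17 and Glrx, glutaredoxin, was higher by 1.66 (2.09 to 4.30 CPM against 0.612 to 1.07 CPM). Of the 10 clock genes with an identifier of 17, Bhlhe41, a repressor of the clock, was higher by 1.81 and Tef, a clock output factor, by 1.06, Npas2, a partner of Bmal1, was lower by -1.08, and 7 were no DEG. The share of DEGs was 30%, beside 34.5% of all genes with a symbol. Tef was just under the fold with library totals (0.91), and Npas2 without HRT soleus replicate 1 (-0.97). The hour at which each muscle was taken is not given in the sources used here.

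Immediate early genes are switched on within minutes by calcium or growth signals, and 17 of 21 had an identifier. Nr4a1, a nuclear receptor induced by contraction, was the DEG among them, with 33.8 to 68.9 CPM in plantaris (median 60.5) and 8.02 to 37.0 CPM in soleus (median 14.9), a log2 fold change of 1.60 ± 0.25 (adjusted p = 6.6e-06) with overlap. The other 16 were no DEG, so that the share of DEGs was 5.88%, beside 34.5% of all genes with a symbol. The median of the list was -0.40, with 14 of the 17 values negative. Egr1 lay at the limit with -1.0 ± 0.28 (adjusted p = 0.004), and it passed in 5 of the other settings and without any of 10 libraries, with values of -1.01 to -1.16. Egr2, of the same family, stood at -0.93 (adjusted p = 0.0049) and passed with library totals (-1.09), without RIN in the model (-1.0) and without LRT plantaris replicate 1 (-1.04) or replicate 3 (-1.03). With library totals the list thus had 1 higher and 2 lower members and a median of -0.55. Of 25 genes of proteolysis, autophagy and growth control with an identifier of 28, Pik3ip1, an inhibitor of phosphoinositide 3-kinase, was higher by 1.82 ± 0.17 (adjusted p = 2.5e-09), at 33.1 to 74.7 CPM in plantaris and 6.38 to 26.2 CPM in soleus. Ampd3, an AMP deaminase that is induced in wasting muscle, was lower by -2.99 ± 0.16 (adjusted p = 2.2e-13), at 7.03 to 20.3 CPM in plantaris (median 12.6) and 69.7 to 172 CPM in soleus (median 99.6). Neither overlapped, and the other 23 were no DEG, a share of DEGs of 8% beside 34.5% of all genes with a symbol. The count of lower members was 2 with library totals and also without LRT plantaris replicate 2. Trim63, the ubiquitin ligase MuRF1 of muscle atrophy, had 167 to 257 CPM in plantaris and 88.1 to 171 CPM in soleus, a log2 fold change of 0.57 (adjusted p = 2.1e-05).

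Of 26 extracellular matrix genes with an identifier of 29, 6 were DEGs lower in plantaris, 1 was higher and 19 were no DEG. The share of DEGs was 26.9%, below the 34.5% of all genes with a symbol, and that of lower members was 23.1% beside 16.3%. The median was -0.46. The count of higher members was 2 without LRT soleus replicate 2 and 0 with at least 10 counts in every library. Cilp, a protein of cartilage and loaded connective tissue, had 30.3 to 68.7 CPM in plantaris (median 43.5) and 65.5 to 384 CPM in soleus (median 105), a log2 fold change of -1.67 ± 0.22 (adjusted p = 7.0e-07). Its relative Cilp2 was higher by 1.57 ± 0.39 (adjusted p = 0.0016), at 1.76 to 12.4 CPM against 0 to 4.65 CPM. The other lower members were Mfap4 (-1.90) and Loxl1 (-1.11), which take part in elastic fibers, Cthrc1 (-1.60), a secreted protein of fibroblasts, Adamts8 (-1.26), a matrix protease, and Thbs3 (-1.03), a thrombospondin. Thbs3 was the DEG of this list whose muscles did not overlap. Without HRT soleus replicate 1 the count of lower members was 4 (15.4%), with Loxl1 at -0.88 and Thbs3 at -0.95. With library totals it was 8 (30.8%), and the median was -0.61. Thbs3 also fell short of the fold without HRT plantaris replicate 3 (-0.99) or HRT soleus replicate 2 (-0.98), without RIN in the model (-0.96) and in the fit of all 48 libraries (-1.0). Col3a1, the fibrillar collagen of the muscle sheath, had 232 to 487 CPM in plantaris (median 340) and 154 to 1390 CPM in soleus (median 355), a log2 fold change of -0.52 (adjusted p = 0.088).

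**Figure D3:**
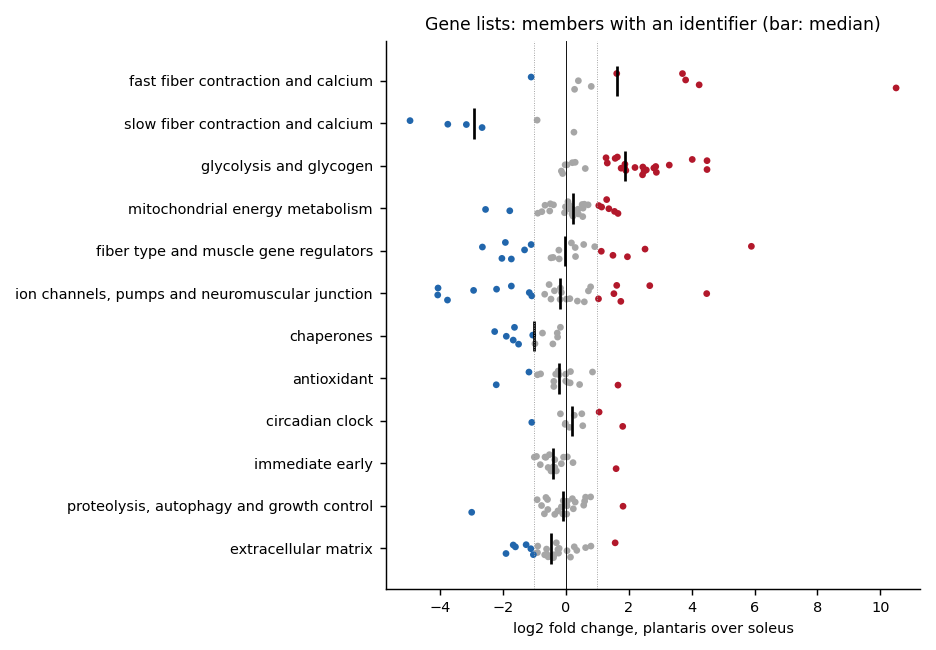
Log2 fold change of plantaris against soleus for each member with an identifier of the 12 gene lists, 1 point a gene, with a bar at the list's median and dotted lines at 1 and -1. The medians run from -2.91 in the slow list to 1.88 in the glycolysis list. Those of the mitochondrial, regulator, ion channel, antioxidant, clock and proteolysis lists lie between -0.21 and 0.23.

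Markers of the other cell types in muscle tissue were summed for each library. Of the 6 erythroid, 6 endothelial and 5 fibroblast genes with an identifier 0 were DEGs, and their summed levels overlapped, with 251 to 1060 CPM in plantaris and 155 to 929 CPM in soleus for the erythroid genes, 47.9 to 87.6 CPM and 39.6 to 101 CPM for the endothelial genes, and 74.8 to 102 CPM and 83.2 to 178 CPM for the fibroblast genes. All 5 fibroblast values were negative, with a median log2 fold change of -0.30 and 3 of them at an adjusted p under 0.05. This is the same sign as the median of the extracellular matrix list, of which the fibroblast markers Lum and Mfap5 are also members. The smooth muscle sum was 55.4 to 88.9 CPM in plantaris and 12.5 to 28.0 CPM in soleus, and it rested on Lmod1, leiomodin, at 49.8 to 81.8 CPM against 7.49 to 11.3 CPM (log2 fold change 2.91). Myocd, the coactivator of smooth muscle genes, was lower by -1.04, with the call lost in 7 other fits, without HRT soleus replicate 1 among them (-0.97). Of 6 adipocyte genes 3 were higher (50%, beside 18.2% of all genes with a symbol) and 1 lower (16.7% beside 16.3%). Thrsp, an inducer of fat synthesis, was higher by 2.51, Dgat2, which makes triglyceride, by 1.61 and Scd, a fatty acid desaturase, by 1.54, while Cidea, a lipid droplet protein, was lower by -3.28 (0.729 to 1.98 CPM against 6.69 to 16.3 CPM). The adipocyte sums overlapped, at 69.0 to 218 CPM in plantaris and 45.9 to 182 CPM in soleus.

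For nerve and Schwann cells 2 of 5 genes were lower (40%, beside 16.3% of all genes with a symbol). These were Uchl1, a neuronal ubiquitin hydrolase (-2.42, with 0.106 to 0.696 CPM against 0.736 to 4.0 CPM), and Cntn2, an axonal adhesion protein (-1.35). The sums were 9.24 to 15.6 CPM in plantaris and 11.9 to 29.2 CPM in soleus. Of 8 macrophage and dendritic cell genes 1 was lower (12.5% beside 16.3%), Gpnmb, a lysosomal glycoprotein (-1.71, with 3.15 to 6.37 CPM against 7.26 to 28.7 CPM). The sums were 19.5 to 40.5 CPM and 23.9 to 49.1 CPM. The tendon sum was 5.24 to 19.7 CPM in plantaris and 0.245 to 11.1 CPM in soleus, from Cilp2 and 1 other gene. The satellite cell sum, Myod1 and Myog, was 19.8 to 40.7 CPM in plantaris and 44.3 to 129 CPM in soleus. In HRT soleus replicate 1 the fibroblast sum was 139 CPM, the nerve sum 26.1 CPM and the macrophage sum 42.3 CPM, each within the range of the soleus libraries but above every plantaris library. The part of these cells in the extracellular matrix and junction results was not tested.

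Mature microRNAs were not measured by these libraries, but 7 microRNA genes carry a symbol, and all 7 were matched by symbol to RefSeq. The following 2 were chosen after their values were seen. Mir133b, whose microRNA belongs to a family of muscle microRNAs, had 1.00 to 2.99 CPM in plantaris (median 1.57) and 3.53 to 12.9 CPM in soleus (median 6.19). Its log2 fold change was -1.88 ± 0.22 (adjusted p = 9.5e-08), and the muscles did not overlap. Mir675, which lies inside the long non-coding RNA H19, had 423 to 1680 CPM in plantaris (median 694) and 166 to 636 CPM in soleus (median 245), a log2 fold change of 1.26 ± 0.21 (adjusted p = 2.2e-05) with overlap. Counts at a microRNA gene in such libraries can come from the longer host or precursor RNA and cannot be read as mature microRNA. The mature forms of RefSeq are shown with the seed, bases 2 to 8, in capitals, because the seed sets which targets are paired. On GRCr8 those of Mir133b lie at chr9:30594592-30594612 and chr9:30594629-30594650 (plus strand) and those of Mir675 at chr1:207161766-207161786 and chr1:207161800-207161821 (minus strand).
miR-133b-5p: gCUGGUCAaacggaaccaagu
miR-133b-3p: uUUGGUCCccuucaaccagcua
miR-675-3p: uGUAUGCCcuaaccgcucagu
miR-675-5p: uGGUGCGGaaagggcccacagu
No seed is shared among these 4.

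The difference between muscles was then taken in each line on its own. In LRT 1622 genes were DEGs (9.96%), 773 higher (4.75%) and 849 lower (5.22%). In HRT 1812 were DEGs (11.1%), 796 higher (4.89%) and 1016 lower (6.24%). Of these 1283 were DEGs in both lines with the same sign in each, which is 79.1% of those in LRT and 70.8% of those in HRT. The split by direction in HRT moved with 1 library and with the scaling. Without HRT soleus replicate 1 there were 911 higher and 934 lower in HRT, a share higher of 49.4% in place of 43.9%, and 783 higher and 878 lower in LRT. With library totals there were 625 higher and 1338 lower in HRT (31.8% higher), and 613 higher and 1102 lower in LRT (35.7% in place of 47.7%). The difference of the muscle effect between lines (LRT minus HRT) passed an adjusted p of 0.05 in 2 genes (0.0123%), both without a symbol and named here after their values were seen. ENSRNOG00000057214 had 1.76 to 4.28 CPM in LRT plantaris, 2.42 to 2.96 CPM in HRT plantaris, 3.92 to 7.96 CPM in LRT soleus and 15.6 to 21.0 CPM in HRT soleus. The plantaris to soleus difference was -0.94 on the log2 scale in LRT and -2.72 in HRT, which leaves a difference between lines of 1.78 ± 0.24 (adjusted p = 0.0019). ENSRNOG00000059075 was at low counts, with 0.322 to 0.828 CPM in LRT plantaris, 0.144 to 0.300 CPM in HRT plantaris, 0.0632 to 0.561 CPM in LRT soleus and 0.711 to 1.51 CPM in HRT soleus, and its difference was 3.08 ± 0.45 (adjusted p = 0.0045). An unadjusted p under 0.05 was reached by 1003 genes (6.16%), and DESeq2 called 49 genes. With a block for the replicate number 6 genes passed. Leaving out 1 library gave 7 genes without HRT soleus replicate 6, 6 without LRT soleus replicate 3, 5 without HRT soleus replicate 1 or LRT plantaris replicate 5, 4 without LRT plantaris replicate 2, and 2 or 3 without any other.

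Among genes with a symbol, Ltbp1, Tenm4 and Psd3 had the smallest p for the difference between lines. Ltbp1, which holds latent TGF-beta in the matrix, stood at 0.70 on the log2 scale in LRT and at -0.40 in HRT, a difference of 1.10 ± 0.20 (adjusted p = 0.057). In plantaris it had 41.5 to 69.1 CPM in LRT and 30.3 to 45.3 CPM in HRT, and in soleus 25.7 to 34.7 CPM in LRT and 38.3 to 63.0 CPM in HRT. The adjusted p of Ltbp1 was 0.027 to 0.04 without any of 7 libraries, 0.022 with genes of any count, 0.024 without RIN, 0.0087 with the replicate block, 0.00034 by DESeq2 and 0.91 in the fit of all 48 libraries. Tenm4, a teneurin, had -0.12 in LRT and -1.70 in HRT (difference 1.58, adjusted p = 0.13), and Psd3, an exchange factor of Arf6, 0.99 and 0.10 (difference 0.90, adjusted p = 0.13). By DESeq2 their adjusted p-values were 0.0082 and 0.012, and without HRT soleus replicate 6 that of Tenm4 was 0.033.

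None of the genes that follow passed an adjusted p for the difference between lines. The muscle effect was more positive in LRT for 54.2% of all genes tested and 50.0% of genes with a symbol, and 12.5% of the latter had an unadjusted p under 0.05. In the fast list this was so for 4 of 9 members, and the list medians were 1.77 in LRT and 1.47 in HRT. In the glycolysis list 5 of 27 were more positive in LRT, 8 had an unadjusted p under 0.05 and the medians were 1.83 in LRT and 1.99 in HRT. In the mitochondrial list the numbers were 3 of 32, 9 and medians of 0.10 and 0.37 (-0.04 and 0.21 with library totals). Pvalb had 10.64 in LRT and 10.36 in HRT, and Casq1 1.77 and 1.47. Fbp2 had 4.21 to 8.95 CPM in LRT soleus and 1.51 to 2.97 CPM in HRT soleus, and its muscle difference was 3.99 ± 0.17 in LRT and 4.99 ± 0.18 in HRT (interaction adjusted p = 0.14). Myoz1 had 3.78 in LRT and 4.69 in HRT, Ldha 2.98 and 3.61, Aqp4 3.59 and 5.36, and Slc16a3 3.12 and 4.93, with adjusted p-values of the difference between 0.36 and 0.48. Mylpf had 195 to 1150 CPM in LRT soleus (median 977) and 82.3 to 672 CPM in HRT soleus (median 282), with a muscle difference of 3.24 ± 0.46 in LRT and 4.38 ± 0.48 in HRT (interaction adjusted p = 0.82). The medians of the slow list were -2.86 in LRT and -2.95 in HRT. Casq2 stood at -3.16 in both lines, Fhl2 at -4.94 in LRT and -4.95 in HRT, Ankrd2 at -3.82 and -3.68, Car3 at -2.57 and -2.75, Sbk2 at -1.01 and -0.80, and Pln at 0.30 and 0.23. Dnah5 had -4.29 in LRT and -2.90 in HRT (adjusted p = 0.51), with 2.49 to 22.8 CPM in LRT plantaris and 27.2 to 72.7 CPM in HRT plantaris. In the extracellular matrix list the muscle effect was more positive in LRT for 24 of 26 genes, and 2 of the 26 had an unadjusted p under 0.05. The list medians were -0.18 in LRT and -0.63 in HRT. Without HRT soleus replicate 1 the count was 21 of 26 and the medians were -0.17 and -0.47. The effect was more positive in LRT for 5 of 5 fibroblast markers, with medians of -0.24 in LRT and -0.41 in HRT, and for 2 of 2 tendon markers (1.40 and 1.00), and their part in the result was not tested. The fibroblast markers Lum and Mfap5 and the tendon marker Cilp2 are themselves members of the matrix list. The genes of a list share libraries, so that such counts of signs are not independent.

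**Figure D4:**
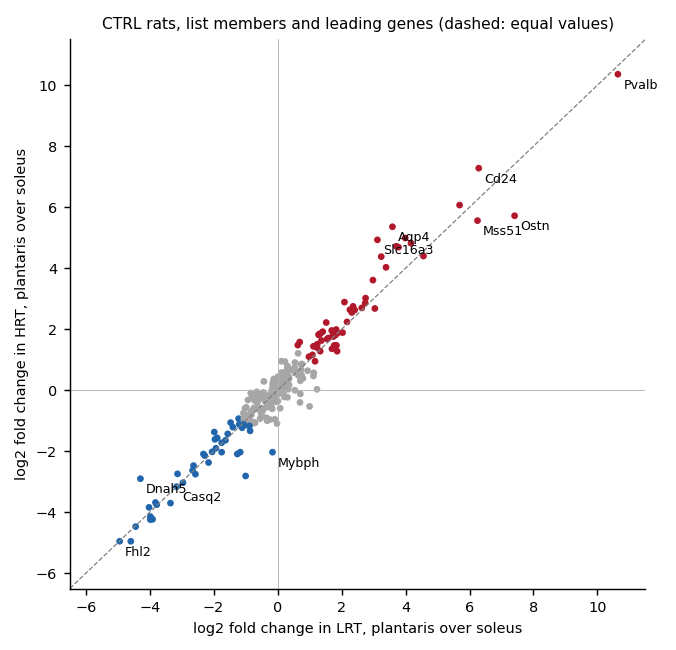
Log2 fold change of plantaris against soleus in LRT on the x axis and in HRT on the y axis, for the members of the gene lists and the leading genes, with the line of equal values. Pvalb lies at 10.64 in LRT and 10.36 in HRT, and Aqp4 and Slc16a3 lie above the line of equal values with 5.36 and 4.93 in HRT.

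The same comparison in the HI rats is given beside the CTRL values. After the cast 1405 of 16525 genes tested were DEGs between plantaris and soleus (8.5%), 598 higher (3.62%) and 807 lower (4.88%). Of these 987 were also DEGs without a cast, all with the same sign, which is 57.5% of the CTRL DEGs and 70.2% of the HI DEGs. Of the 1646 CTRL DEGs tested in HI rats, 1595 had the same sign. Differences between the CTRL and HI values were not tested. Pvalb had a log2 fold change of 10.5 in CTRL and 7.17 in HI, Mss51 5.90 and 4.62, Mylpf 3.81 and 3.12, and Fbp2 4.49 and 2.66. Fhl2 had -4.95 and -4.32, Casq2 -3.16 and -3.89, Ankrd2 -3.75 and -4.04, and Tecrl -4.46 and -4.85. The glycolysis list had 20 DEGs higher in CTRL and 13 in HI, with 0 lower in either, and the slow list 4 lower in each. Among the 1148 genes with a symbol 16.3% were lower DEGs in CTRL and 14% in HI. Of the 17 immediate early genes 1 was higher in plantaris in CTRL and 8 in HI, where 13.2% of the 1148 genes with a symbol were. Some genes had no difference of like size after the cast. Ampd3 had -2.99 in CTRL and 0.09 in HI, Myog -1.73 and -0.08, Hspa1b -1.67 and -0.08, and Ache 1.62 and -0.30. Gpnmb had -1.71 and 1.26. Larger values in HI were those of Prima1 with 1.53 and 3.82 and Trim63 with 0.57 and 2.43.

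**Figure D5:**
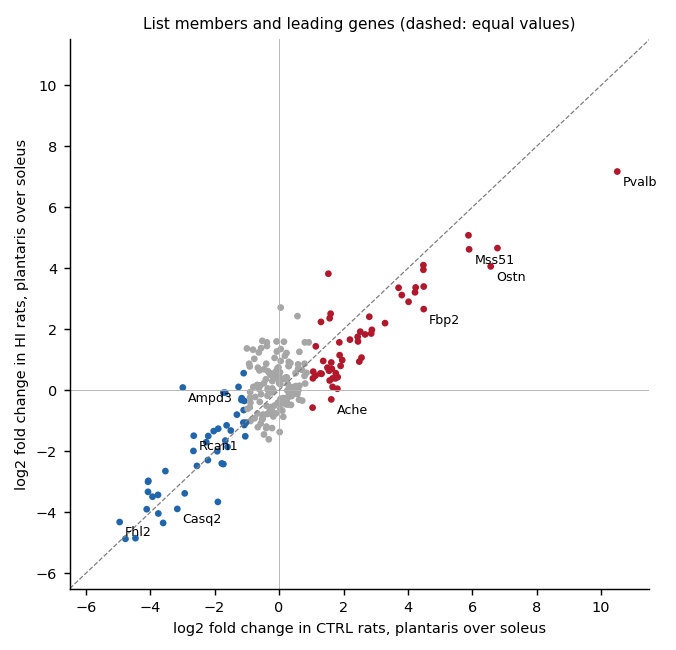
Log2 fold change of plantaris against soleus without a cast (CTRL) on the x axis and after the cast (HI) on the y axis, for the members of the gene lists and the leading genes, with the line of equal values. Ampd3 lies at -2.99 in CTRL and 0.09 in HI, while Prima1 lies at 1.53 and 3.82.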

How the data were processed

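RNA from plantaris and soleus tissue was sequenced by the authors, who quantified transcripts with Salmon 0.9.1 against Ensembl annotation of Rnor_6.0 (submitters' processing notes and the study's methods) and summed them per gene. The deposited values are estimated counts without normalization between libraries, 65.7% of the CTRL values were not whole, and all were rounded. No column of the authors' own comparisons was used as a value. Symbols were taken from the study's lists of genes that responded to the cast. Groups and RIN came from the labels.

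The 24 CTRL libraries were fitted with edgeR 4.0.16 in R 4.3.3 (filterByExpr, TMM, quasi-likelihood test) with the 4 groups and RIN, and the mean of the line-specific differences was tested. A standard error is the fold change over the root of its F. The plantaris and soleus of a rat were treated as independent, since no source says that replicate numbers name the rat. The HI libraries were fitted in the same way. With the 16279 tested genes sorted by fold, the named genes were the 12 largest in each direction among DEGs with a symbol, without overlap between muscles and with over 3 counts in at least 6 libraries of the lower group. Members of the lists and the 3 genes with a symbol and the smallest interaction p were added. So were 2 identifiers without a symbol in each direction, the largest by fold under the same conditions of DEG call, overlap and counts. The members and lists were chosen with earlier results of these data known. Near-identical genes may share reads. The labels and the study's methods name different library kits, so that the strand setting is not settled and antisense reads cannot be told apart.

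Alternatives were the size factors and the Wald test of DESeq2 1.42.0, library totals, limma-voom (limma 3.58.1), genes with any count, at least 10 counts in every library, no RIN, all 48 libraries in 1 fit, a block for the replicate number, stricter or looser thresholds, and each library left out. Counts of list members under these settings were chosen after seeing the data. Scripts were tested on simulated data. Figures were drawn with matplotlib 3.10.9. Protein sequences were not used here. Some members of the lists are counted but not reported here by name.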

Additional observations from a re-analysis of the deposited data

Results flagged for a closer look

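In groups of 6 libraries, a highest or lowest value far from the others by Dixon's test was found in 45 of 500 combinations of gene and group (9.0%). The limit of this test is set to flag about 1 in 20 groups of normally distributed values. CPM were used without a log, and the genes were chosen and share libraries, so that 1 in 20 is not a chance rate for these combinations. The levels are in CPM, with the range of the other 5 libraries of the group in brackets. LRT soleus replicate 3 held the top value for Ankrd2 at 2330 (864 to 1270), Ckmt2 at 2650 (1710 to 2050), ENSRNOG00000019745 at 33.3 (2.07 to 8.48), Idh3a at 236 (119 to 160), Loxl1 at 13 (5.29 to 7.6), Mybph at 170 (18.3 to 52.6), Myog at 127 (41.9 to 63.5) and Ryr3 at 552 (218 to 336). LRT soleus replicate 3 held the bottom value for Bpgm at 40.9 (55.8 to 63.9) and Car3 at 11300 (17500 to 20500). HRT soleus replicate 1 held the top value for Ache at 19.8 (7.9 to 10.7), Colq at 29.3 (8.78 to 12.6), Hspb6 at 1140 (263 to 372), Jph2 at 63.4 (45 to 50.6), Mamstr at 3.5 (0.918 to 1.77), Npas2 at 18.2 (9.47 to 12.4), Prima1 at 1.57 (0.432 to 0.792), Runx1 at 9.75 (3.39 to 5.4) and Slc4a3 at 197 (78.6 to 117). HRT soleus replicate 6 held the top value for Cd24 at 4.21 (0.504 to 0.9), Eno3 at 1280 (752 to 947), Ldha at 363 (182 to 246) and Ostn at 1.36 (0.237 to 0.581). HRT plantaris replicate 6 held the top value for Gpi at 672 (538 to 582), Hspa1b at 57 (8.9 to 26.9) and Pgp at 105 (71.8 to 83.7). HRT plantaris replicate 6 was far below its group for Ehhadh at 14.4 (22.9 to 27.6). LRT plantaris replicate 3 held the top value for Cd24 at 601 (219 to 262) and Mss51 at 654 (332 to 432). LRT plantaris replicate 3 was far below its group for Nhlrc1 at 4.91 (9.36 to 10.5). LRT plantaris replicate 5 held the top value for Cidea at 1.98 (0.729 to 0.967), Cntn2 at 2.56 (1.69 to 2) and Fhl2 at 3.57 (1.15 to 1.92). LRT soleus replicate 6 was far above its group for ENSRNOG00000008807 at 21.8 (5.64 to 8.65). LRT soleus replicate 6 was far below its group for Mylpf at 195 (816 to 1150). LRT plantaris replicate 2 held the top value for Aqp4 at 274 (184 to 209) and Cilp2 at 10.7 (1.76 to 5). HRT soleus replicate 5 was far above its group for Casq1 at 561 (517 to 534). HRT plantaris replicate 4 was far above its group for Gpnmb at 6.17 (4.13 to 4.69). HRT plantaris replicate 4 was far below its group for ENSRNOG00000019627 at 2330 (3230 to 3380). LRT soleus replicate 4 was far above its group for Bhlhe41 at 7.94 (2.93 to 4.49). LRT soleus replicate 1 was far below its group for ENSRNOG00000057214 at 3.92 (6.59 to 7.96). HRT soleus replicate 3 was far above its group for Myod1 at 2.69 (1.55 to 1.93). LRT plantaris replicate 1 was far above its group for Pfkfb3 at 299 (156 to 198). LRT soleus replicate 2 was far below its group for Slc2a4 at 438 (511 to 554).

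LRT soleus replicate 3 was found in 10 of the 45 and HRT soleus replicate 1 in 9. On the second principal component HRT soleus replicate 1 was at 72 while the other HRT soleus libraries lay between -6.1 and 9.8, and the TMM factor of HRT plantaris replicate 6 was 0.963 against 0.983 to 0.993 in the rest of its group. No library was left out of the reported fits for this.

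The muscle effect differed between the lines, by the interaction test of edgeR, in ENSRNOG00000057214 (LRT minus HRT 1.78, adjusted p = 0.0019) and ENSRNOG00000059075 (3.08, adjusted p = 0.0045).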

How the results depend on the processing

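Library depth of 26.9 M to 34.2 M counts limits genes of few counts, such as ENSRNOG00000059075, and the sequences of near-identical genes limit Actc1 and Hspa1b. The count of 1716 DEGs stayed between 1691 and 1834 under DESeq2 size factors, library totals, DESeq2, limma-voom, no RIN, all 48 libraries and the replicate block, and it was 2497 with genes of any count (28472 tested) and 1568 at an adjusted p under 0.001. Of the 1716, 1546 were also called with library totals, 1645 by limma-voom and 1705 by DESeq2. With at least 10 counts in every library, which tests 13779 genes in CTRL rats, there were 1094 DEGs in both lines together, 1081 in LRT and 1195 in HRT. In HI rats the same setting tested 13878 genes and gave 901 DEGs. Without a fold threshold there were 8678 in both lines together, 6076 in LRT, 7236 in HRT and 4908 in HI rats. HI rats had 811 at an adjusted p under 0.001. Leaving out each library gave 1721 to 1772 DEGs, 1589 to 1682 in LRT and 1819 to 1881 in HRT. The muscle by line interaction had 2 genes, and 49 by DESeq2, 4 with genes of any count, 1 with at least 10 counts (ENSRNOG00000059075 was not tested there), 4 without RIN, 6 with the replicate block and 2 to 7 when each library was left out (5 without HRT soleus replicate 1, 7 without HRT soleus replicate 6). The cause was not tested. ENSRNOG00000057214 and ENSRNOG00000059075 stayed under an adjusted p of 0.05 in every setting in which they were tested. The muscle difference of Ltbp1, 0.15 and not called, became 0.00 (adjusted p = 0.99) with library totals, which moves all genes down. Each rat gave both muscles, but no source says which libraries came from the same rat. Replicate numbers are shared by the groups. In 10 of 12 pairs of same-numbered libraries the deviations correlated over 0.1 (r from -0.06 to 0.30). For 10 of 12 plantaris libraries the best correlation was with the soleus of their own number, so that a pairing by number is a hint from the data. The standard errors and adjusted p-values of the main fit do not use a pairing. With the replicate block there were 1699 DEGs, 1658 of them shared, 1637 in LRT, 1814 in HRT and 1265 in HI rats (1405 without it).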
